A study of Homo sapiens with 3 samples.

Results

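The 9 genes described here encode the enzymes that make serine from a glycolytic intermediate and pass its carbon into the folate cycle. They were taken by gene symbol, with earlier results of these data known, out of 19775 genes that had a probe set annotated to a single gene. NCI-H1650 is an established human lung adenocarcinoma line. The study set cells exposed to 40 μM colossolactone H (colo H in the labels), a triterpenoid of the fungus Ganoderma colossum, for 12 h or for 24 h against control H1650 cells. Each group was 1 Affymetrix array, so there is no replicate error, no test and no p-value, and every difference describes these 3 arrays only. The treated cultures began with 1000000 cells in a 10 cm dish, while for the control the labels give neither a harvest time nor a vehicle. All cells grew in RPMI-1640 with 10% serum, 2 mM glutamine and 0.1 mM non-essential amino acids. That medium and that supplement both supply serine and glycine.

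Serine synthesis branches from glycolysis at 3-phosphoglycerate and runs through PHGDH, PSAT1 and PSPH in the cytosol. SHMT enzymes then split serine into glycine and a carbon unit carried on tetrahydrofolate. Inside mitochondria SHMT2, MTHFD2 and MTHFD1L turn that unit into formate, and ALDH1L2 can instead burn it to CO2 while making NADPH. In the cytosol SHMT1 and MTHFD1 handle the same carriers, and MTHFD1 takes up the formate for purine and thymidylate synthesis. The stress factor ATF4 is a known activator of several of these genes when amino acids are short.

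Values are MAS5 signal on a linear scale. A signal of 61.4, the 50th percentile of all values, served as a floor, and a gene was measured if its brightest single-gene probe set exceeded the floor on at least 1 array. By that rule 12351 genes were measured, and 7 of the 9 enzymes were among them. SHMT1 and MTHFD1L were not, because both of their single-gene probe sets stayed below the floor on every array. Of 20 single-gene probe sets of the enzymes, 16 exceeded the floor on all 3 arrays and the other 4 on none. The probe level cannot rank genes against each other, so signals are compared only within a probe set, as log2 of treated over control signal. In RNA of whole cultures, fewer cells of a kind and less RNA per cell cannot be told apart.

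As a check of the labelled line, all 7 epithelial markers were measured, with summed signals of 70170.5 at 12 h, 70996 at 24 h and 72969.5 in the control. Of 5 leukocyte markers read 2 were measured. CSF1R gave 186 at 12 h, 179.5 at 24 h and 198 in the control, and HBB exceeded the floor at 12 h only, at 90.6. PTPRC, CD3E and CD14 were below the floor, and sums over the list ran between 324.0 and 369.5. Of 6 fibroblast and endothelial markers 3 were measured, and the list summed to 1517 at 12 h, 1229.5 at 24 h and 1830 in the control. As a reading of RNA integrity, the ACTB control probe sets gave a 3' over 5' ratio of 5.38 at 12 h, 6.55 at 24 h and 4.95 in the control. The GAPDH ratio lay between 1.21 and 1.25. The part of these shifts in the results was not tested.

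After colossolactone H, 6 of the 7 measured enzymes had a higher signal than in the control at 12 h, and 6 of 7 at 24 h. The share of all measured genes that were higher was 50.2% at 12 h and 48.8% at 24 h. The 3 enzymes of serine synthesis differed most, by 1.65-fold to 2.13-fold. SHMT2 and ALDH1L2 of the mitochondrial folate pathway were 1.4-fold to 1.6-fold higher. MTHFD1, the cytosolic folate enzyme, was the measured enzyme with less signal, at both times. The median log2 difference of the 7 enzymes was 0.55 at 12 h and 0.68 at 24 h, and that of all measured genes was 0.00 at each time. With probe sets of several genes included, which bring in SHMT1 and MTHFD1L and replace the PHGDH value, the median of the enzymes was 0.17 at 12 h and 0.19 at 24 h. Both comparisons use the same control array, so their likeness is not a repeat measurement.

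**Figure D1:**
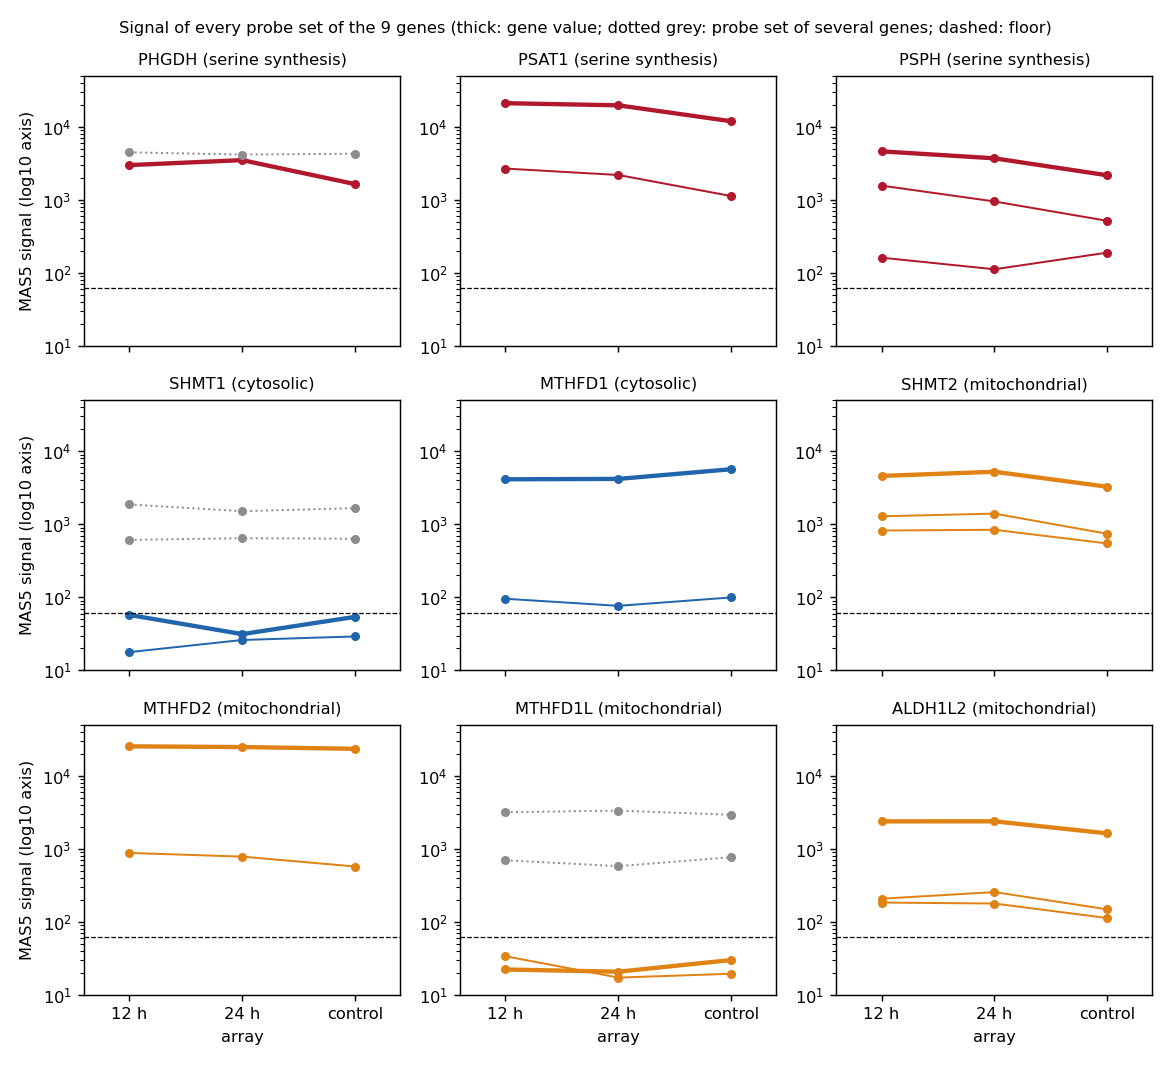
MAS5 signal (vertical, log10 axis) of every probe set of the 9 genes on the 12 h, 24 h and control arrays (horizontal). Lines join the values of 1 probe set, thick lines are the gene values, dotted grey lines are probe sets annotated to several genes, and the dashed line is the floor of 61.4. The gene values of PHGDH, PSAT1, PSPH, SHMT2 and ALDH1L2 lie higher on both treated arrays than on the control, the dim probe set of PSPH lies lower on both, and the shared one of PHGDH lies lower at 24 h, while the single-gene probe sets of SHMT1 and MTHFD1L stay under the floor.

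PHGDH (Entrez gene 26227), which oxidises 3-phosphoglycerate in the committed step of the pathway, gave signals of 3000.3 at 12 h and 3508 at 24 h, against 1647 in the control. Both treated arrays were well above the control, by 0.87 at 12 h and 1.09 at 24 h on the log2 scale, or 1.82-fold and 2.13-fold. Of 12351 measured genes, 106 had a larger difference at 12 h and 54 at 24 h. The gene rests on 1 single-gene probe set, which is transcript-specific. A brighter probe set annotated jointly to MZT2A, MZT2B and PHGDH gave 4484 at 12 h, 4179 at 24 h and 4293.5 in the control, differences of 0.06 and -0.04. Which of its 3 genes that probe set reads was not tested, and with it in place of the single-gene one the higher signal of PHGDH is not seen.

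PSAT1 (Entrez gene 29968), the transaminase that adds the amino group from glutamate, gave 21107 at 12 h and 19735 at 24 h, against 11948 in the control. The differences were 0.82 and 0.72, so PSAT1 was 1.77-fold and 1.65-fold higher. Its second probe set read 2690.0 at 12 h and 2196 at 24 h, against 1131 in the control, differences of 1.25 and 0.96. Both probe sets put each treated array above the control, and both placed 12 h slightly above 24 h. The bright probe set of PSAT1 was among the 546 brightest of the array, a class in which differences were small. In that class the robust SD of the 12 h difference was 0.087, against 0.274 over the 25494 probe sets above the floor on all arrays. Only 4 of the 546 were 1.5-fold or more higher at 12 h and 0 were 1.5-fold or more lower, and PSAT1 had the highest difference. The other 3 were probe sets of HSPA5, the reticulum chaperone, of ATF4, and of NACA4P, named here after their values were seen. The class was formed by mean signal over all 3 arrays, so higher treated signals counted toward entry. On the control array alone, the brightest 1% of probe sets began at 11843.8. PSAT1 read 11948 there, above that level, and ATF4 read 11494, below it.

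PSPH (Entrez gene 5723), the phosphatase that releases serine, gave 4622 at 12 h and 3715.5 at 24 h, against 2176 in the control. It was 2.12-fold higher at 12 h and 1.71-fold higher at 24 h, differences of 1.09 and 0.77. At 12 h only 39 measured genes had a larger difference. A second probe set read 1571 at 12 h, 954 at 24 h and 518 in the control, differences of 1.60 and 0.88. The remaining, dim probe set went the other way, with 162 at 12 h, 112.5 at 24 h and 190 in the control, or -0.23 and -0.76. Its suffix marks probes that can match other transcripts, and what it reads was not tested. Between the treated arrays PSPH was lower at 24 h than at 12 h by 0.32, the largest such gap among the gene values. The second probe set was lower by 0.72 and the dim one by 0.53, which is also the median over the 3.

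By gene value, PSPH alone of the 3 synthesis enzymes was 2-fold or more higher at 12 h and PHGDH alone at 24 h. No other gene value reached 2-fold in either direction at either time, though the second probe set of PSAT1 was 2.38-fold higher at 12 h. Among all measured genes 0.445% were 2-fold or more higher at 12 h and 0.591% at 24 h, while 0.437% and 0.64% were 2-fold or more lower. All 3 synthesis enzymes were 1.5-fold or more higher at both times, as were 3.41% of all measured genes at 12 h and 4.09% at 24 h. At 24 h SHMT2 was the fourth enzyme past 1.5-fold. With 7 enzymes these counts describe the enzymes and carry no error.

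The sequence before the start of PHGDH and of PSAT1 is shown because these genes hold the opening steps of the pathway and both had a higher signal at each time. The windows hold the 250 bases before the annotated start, from RefSeq on GRCh38.p14, which had entries for 6 of the 9 genes. Capitals mark matches on either strand to the letters of 5 known elements. These are the C/EBP-ATF response element bound by ATF4 (TGATGNAA), the cAMP response element (TGACGTCA), the E-box (CACGTG), the CCAAT box (CCAAT) and the antioxidant response element (TGACNNNGC).
PHGDH, chr1:119711684-119711933, plus strand: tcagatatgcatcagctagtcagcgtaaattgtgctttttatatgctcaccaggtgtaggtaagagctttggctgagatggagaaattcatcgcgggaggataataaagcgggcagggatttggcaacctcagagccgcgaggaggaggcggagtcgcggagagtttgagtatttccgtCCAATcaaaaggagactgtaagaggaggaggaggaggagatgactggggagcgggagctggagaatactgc
PSAT1, chr9:78296875-78297124, plus strand: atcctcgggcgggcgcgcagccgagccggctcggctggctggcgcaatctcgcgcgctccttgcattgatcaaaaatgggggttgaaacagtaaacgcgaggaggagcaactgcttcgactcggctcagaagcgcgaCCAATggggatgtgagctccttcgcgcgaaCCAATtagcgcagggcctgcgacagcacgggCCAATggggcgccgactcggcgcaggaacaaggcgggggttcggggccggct
In PHGDH the marked letters are 1 CCAAT box, whose first base lies at position -71 counted from the start. In PSAT1 there are 3, at -113, -83 and -52. CCAAT occurs in 32.0% of the 35116 windows of this length in the RefSeq table. At least 1 window of each of the 6 enzymes holds it, a count by gene and not by window, as MTHFD1L has 4 windows. A match to TGATGNAA stands in 3.14% of all windows, and neither the PHGDH nor the PSAT1 window has it. That says only that these letters are not in these windows.

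SHMT2 (Entrez gene 6472), the mitochondrial serine hydroxymethyltransferase, gave 4595 at 12 h and 5243 at 24 h, against 3270.4 in the control. It was 1.40-fold and 1.60-fold higher, differences of 0.49 and 0.68. A second probe set read 1287 at 12 h, 1402 at 24 h and 742 in the control, or 0.79 and 0.92. The remaining one read 823 at 12 h, 841.5 at 24 h and 547 in the control, or 0.59 and 0.62. All 3 probe sets were higher at both times and none was higher at 12 h than at 24 h. Of all measured genes 5.47% were at or above SHMT2 in the 12 h comparison and 2.61% in the 24 h comparison.

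ALDH1L2 (Entrez gene 160428), the mitochondrial formyltetrahydrofolate dehydrogenase, gave 2365 at 12 h and 2368 at 24 h, against 1619 in the control. The difference was 0.55 at each time, or 1.46-fold. Its 2 dimmer probe sets were also higher on both treated arrays. One read 207 at 12 h, 255 at 24 h and 148 in the control, the other 183 at 12 h, 177.5 at 24 h and 112 in the control. Their differences were 0.48 and 0.70 at 12 h, and 0.79 and 0.66 at 24 h.

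MTHFD2 (Entrez gene 10797), the mitochondrial dehydrogenase and cyclohydrolase, was read by a very bright probe set, with 25165 at 12 h, 24605.5 at 24 h and 23271 in the control. That probe set ranked 90th of 54675 by mean signal, a place on the scale of the array and not a level of its RNA against other genes. Its differences were 0.11 and 0.08. Of all measured genes 32.8% were at or above MTHFD2 at 12 h and 37.4% at 24 h. Its second probe set, of the kind that can match other transcripts, read 874 at 12 h and 778.5 at 24 h, against 570 in the control. There the differences were 0.62 and 0.45, several times those of the bright probe set. Both probe sets were higher on the treated arrays, but they do not give a common size. As noted for PSAT1, differences among the brightest probe sets were small on these arrays, and the part of that in the MTHFD2 value was not tested.

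MTHFD1L (Entrez gene 25902), the mitochondrial formyltetrahydrofolate synthetase that releases formate, had 2 single-gene probe sets at 17.2 to 33.7 signal units, all below the floor. The other 2 probe sets carry its symbol beside LOC101928195 and LOC100996643. The brighter of these read 3152 at 12 h and 3320 at 24 h, against 2909 in the control, or 0.12 and 0.19. The dimmer read 694 at 12 h and 576 at 24 h, against 765 in the control, or -0.14 and -0.41. They went opposite ways, and no direction is given for MTHFD1L.

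MTHFD1 (Entrez gene 4522), the trifunctional cytosolic enzyme, gave 4133 at 12 h and 4185 at 24 h, against 5675 in the control. It was 1.37-fold and 1.36-fold lower, differences of -0.46 and -0.44, and the treated arrays lay close together. A second, dim probe set read 95.7 at 12 h, 76.6 at 24 h and 99.8 in the control, or -0.06 and -0.38. Of all measured genes 6.04% were at or below MTHFD1 at 12 h and 9.72% at 24 h. By gene value no enzyme was 1.5-fold lower, as 3.11% of all measured genes were at 12 h and 4.92% at 24 h.

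SHMT1 (Entrez gene 6470), the cytosolic serine hydroxymethyltransferase, had single-gene probe sets at 17.8 to 57.5 signal units, below the floor. A pair of bright probe sets carry both SHMT1 and MIR6778 in the annotation. The brighter read 1870 at 12 h and 1512 at 24 h, against 1667 in the control, or 0.17 and -0.14. The other read 612 at 12 h and 646 at 24 h, against 634 in the control, or -0.05 and 0.03. On these shared probe sets the treated and control signals lay within 1.5-fold of each other, with opposite signs at the 2 times.

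Set side by side, the 3 measured mitochondrial enzymes were all higher and the 1 measured cytosolic folate enzyme was lower, at both times. Of the 3, MTHFD2 differed little by gene value, at 0.11 and 0.08, where 32.8% and 37.4% of all measured genes were as high. The median of SHMT2, MTHFD2 and ALDH1L2 was 0.49 at 12 h and 0.55 at 24 h, against -0.46 and -0.44 for MTHFD1. The mitochondrial minus cytosolic difference was 0.95 at 12 h and 0.99 at 24 h. It stands on 1 gene on the cytosolic side. With a floor low enough to admit SHMT1 and MTHFD1L it was 0.49 at 12 h and 0.93 at 24 h. With the shared probe sets, an alternative added after the values were seen, it was 0.45 at 12 h and 0.66 at 24 h. The sign was the same under all 9 alternatives, with values of 0.45 to 1.0 at 12 h and 0.66 to 1.07 at 24 h.

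**Figure D2:**
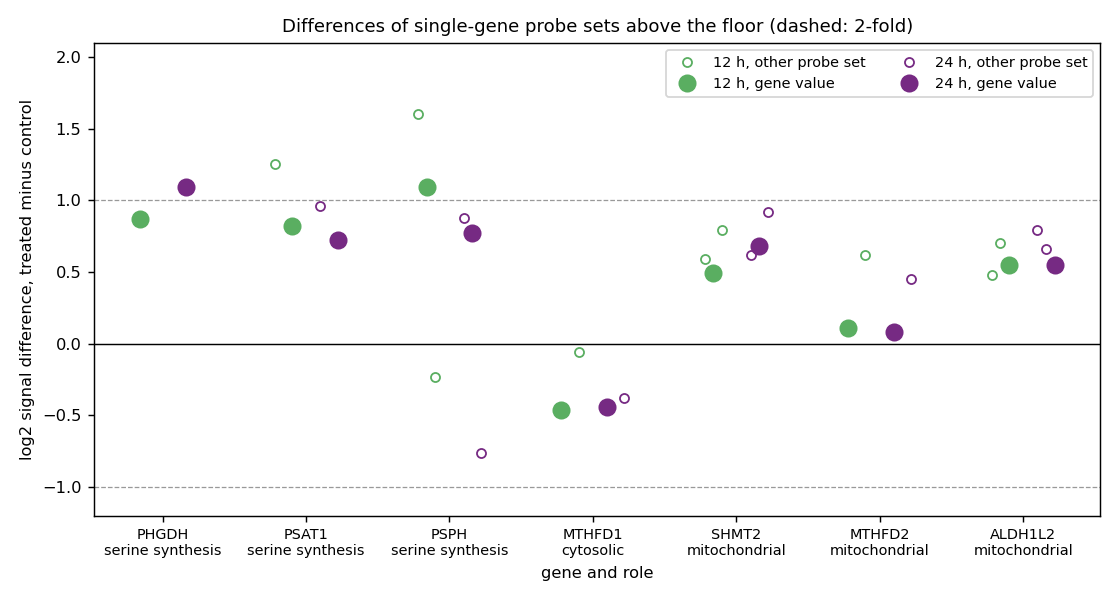
Log2 signal difference of treated minus control (vertical) for each single-gene probe set that exceeded the floor on the 3 arrays, by gene and role (horizontal), at 12 h (green) and 24 h (purple). Filled points are gene values, open points other probe sets, and dashed lines mark 2-fold. Of 16 probe sets 13 are above 0 at each time, and the 3 below are both probe sets of MTHFD1 and the dim one of PSPH.

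Counted by probe set, 13 of the 16 above the floor were higher at 12 h and 13 at 24 h. Among all 21042 probe sets of 1 gene that exceeded the floor on the 3 arrays, 50.3% were higher at 12 h and 50.2% at 24 h. Probe sets of 1 gene read the same RNA on the same array and are not replicates.

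The promoter windows of MTHFD1L and MTHFD1 are shown as the pair of mitochondrial and cytosolic enzymes that share a reaction, and because MTHFD1L alone of the 6 held the ATF4 element. Capitals mark the same 5 elements.
MTHFD1L, chr6:150866236-150866485, plus strand: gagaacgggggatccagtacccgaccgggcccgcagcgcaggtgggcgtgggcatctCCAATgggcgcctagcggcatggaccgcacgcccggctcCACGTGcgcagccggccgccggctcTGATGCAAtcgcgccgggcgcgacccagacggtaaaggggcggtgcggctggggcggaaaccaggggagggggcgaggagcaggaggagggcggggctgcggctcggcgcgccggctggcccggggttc
MTHFD1, chr14:64388103-64388352, plus strand: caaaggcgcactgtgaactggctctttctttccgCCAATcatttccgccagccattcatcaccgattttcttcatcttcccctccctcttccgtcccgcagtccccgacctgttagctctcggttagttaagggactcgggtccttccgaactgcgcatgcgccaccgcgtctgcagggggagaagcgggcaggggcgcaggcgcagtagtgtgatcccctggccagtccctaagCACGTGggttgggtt
In MTHFD1L the C/EBP-ATF letters begin at -129, an E-box at -154 and a CCAAT box at -193. RefSeq lists 4 starts for this gene. Another of these windows overlaps the printed one and holds the same match, while the windows of the remaining starts lack it. In MTHFD1 an E-box begins at -15 and a CCAAT box at -216. CACGTG stands in 6.34% of all windows, TGACGTCA in 1.65% and TGACNNNGC in 10.9%, and no window of the 6 enzymes held either of the last ones. The array gives no reading of factor binding, and MTHFD1L has no gene value here.

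Between the treated arrays the enzymes differed little. For 24 h against 12 h the 7 values lay between -0.32 for PSPH and 0.23 for PHGDH, and the median was 0.00. None of these gene values was 1.5-fold apart, though the second probe set of PSPH was 1.65-fold lower at 24 h. Among all measured genes 1.46% were 1.5-fold or more higher at 24 h than at 12 h and 1.93% lower. The robust SD of this comparison over all measured genes was 0.183. PHGDH and SHMT2 were higher at 24 h than at 12 h, by 0.23 and 0.19, PSPH and PSAT1 lower, by 0.32 and 0.10, and ALDH1L2, MTHFD1 and MTHFD2 within 0.03 of 0.

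**Figure D3:**
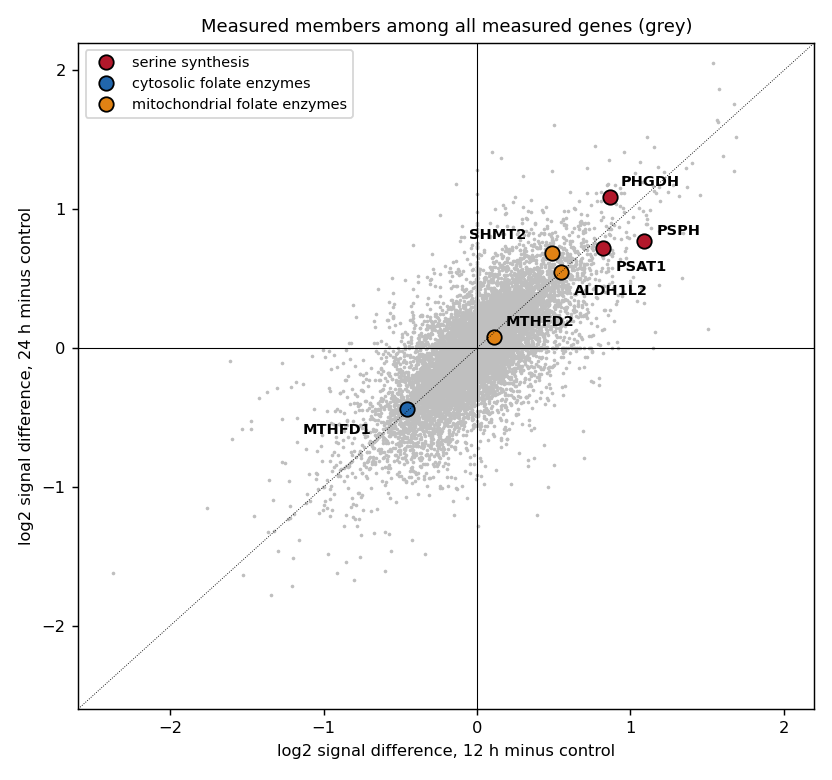
Log2 signal difference of 12 h minus control (horizontal) against 24 h minus control (vertical) for 12351 measured genes (grey) and the 7 measured enzymes (coloured by role). The dotted line marks equal values, and both axes share the control array. The serine synthesis enzymes lie at the upper right edge of the cloud, MTHFD2 near its centre and MTHFD1 at the lower left.

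Patterns over the 3 arrays were compared by the distance between genes in the pair of differences, among 11308 genes above the floor on all arrays. With 3 arrays such a likeness is coarse. Nearest to PHGDH were WARS1, the tryptophanyl-tRNA synthetase, at a distance of 0.026, ZNF283 at 0.026 and TMEM150A at 0.063. Nearest to PSAT1 were ERN1, the reticulum stress sensor, at 0.026, ZNF282 at 0.029 and H3C6 at 0.034. Nearest to PSPH were CMKLR2 at 0.028, MTG1 at 0.077 and SSNA1 at 0.101. Within 0.1 of PSPH lay 2 genes, of PHGDH 12, of PSAT1 24, of SHMT2 76, of ALDH1L2 111, of MTHFD1 194 and of MTHFD2 1194.

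Around these enzymes 8 lists of pathway genes, with 78 genes in all, were read in the same way. Among known regulators of the pathway DDIT3 differed more than any of the enzymes. DDIT3, the stress factor CHOP, gave 2071 at 12 h and 2199 at 24 h, against 649.5 in the control, or 1.67 and 1.76. TRIB3, a pseudokinase that restrains ATF4, was at 1.19 and 1.06, and those were the 2 of 7 measured regulators past 2-fold. ATF4 gave 18391 at 12 h and 19404 at 24 h, against 11494 in the control, or 0.68 and 0.76. MYC, a growth-promoting transcription factor also known to raise serine synthesis, was lower, at -0.41 and -0.36. The list median was 0.22 at 12 h and 0.12 at 24 h.

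Signals of the glycolytic genes around 3-phosphoglycerate were close to the control, and the metabolite itself was not measured. Of 6 measured glycolytic genes 5 were higher at 12 h and 4 at 24 h, beside 50.2% and 48.8% of all measured genes, and the list medians were 0.07 and 0.08. The values ranged from -0.07 for PGAM1 to 0.22 for ALDOA at 12 h, and from -0.19 for PGAM1 to 0.31 for ALDOA at 24 h. Genes of serine transport parted. SLC1A4, an exchanger of serine and alanine, gave 2772 at 12 h and 2518 at 24 h, against 1267 in the control, or 1.13 and 0.99, and all 5 of its probe sets were higher. SLC1A5, a glutamine and serine exchanger, was at 0.86 and 0.87. SFXN2, of the family of mitochondrial serine carriers, was lower, at -0.78 and -0.40, and SFXN3 was at -0.15 and -0.12. The list median was 0.10 at 12 h and 0.01 at 24 h over 7 measured genes.

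Among genes that use serine, those of cysteine synthesis differed most. CBS, which joins serine to homocysteine, gave 1321.5 at 12 h and 1399 at 24 h, against 447 in the control, or 1.56 and 1.65. Its other probe sets gave 0.60 and 0.19 at 12 h and 0.80 and 0.19 at 24 h, so the direction was shared and the size was not. CTH, which releases cysteine, was at 0.56 and 0.68. SPTLC2, which starts sphingolipid synthesis, was at 0.21 and 0.23, and SRR, the serine racemase, at -0.22 and -0.26. The list median was 0.01 at 12 h and 0.06 at 24 h over 7 measured genes.

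Purine and thymidylate synthesis use folate carbon. Of 8 genes of purine synthesis 5 were lower at 12 h and 5 at 24 h, with medians of -0.04 and -0.09, beside 48.4% and 49.9% of all measured genes that were lower. PAICS was at -0.52 and -0.43, PRPS2 at -0.21 and -0.40, PFAS at -0.22 and -0.38 and PRPS1 at -0.06 and -0.18. A second probe set of PAICS gave -0.09 and -0.17. TYMS, the thymidylate synthase, gave 8788 at 12 h and 7194 at 24 h, against 11474 in the control, or -0.38 and -0.67, with both of its measured probe sets lower. SLC19A1, the reduced folate carrier, was at -0.46 and -0.60. The list of other folate genes had medians of 0.02 and 0.08 over 13 measured genes. Methionine cycle genes lay between -0.22 and 0.27, with medians of 0.03 and -0.02 over 7 measured genes. MTRR, the reductase of methionine synthase, was at 0.09 and 0.27, and AHCYL1 at 0.06 and 0.18.

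**Figure D4:**
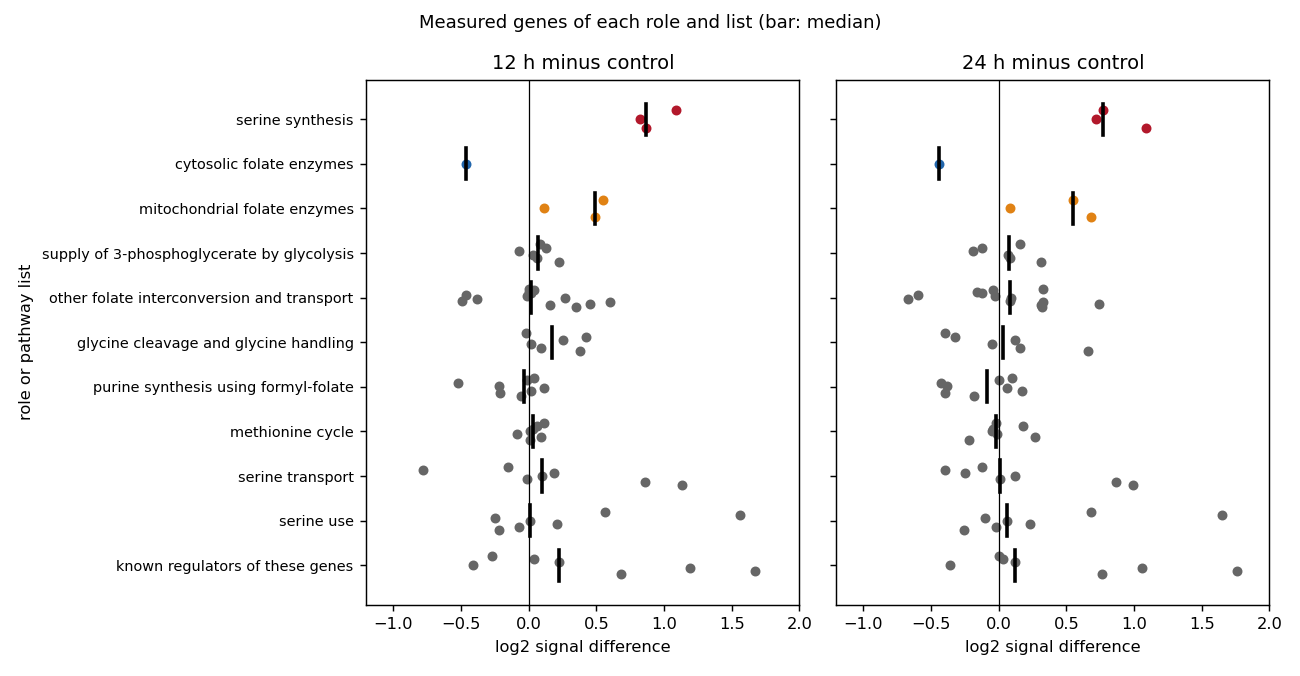
Log2 signal difference (horizontal) of the measured genes of each enzyme role and pathway list (vertical), for 12 h minus control (left) and 24 h minus control (right). Points are genes and black bars are medians. The 3 serine synthesis enzymes lie at 0.72 or above at both times, while the medians of the 8 pathway lists lie between -0.09 and 0.22.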

How the data were processed

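Total RNA of 3 samples was hybridised to 1 array each, from 6 μg per sample, per the labels' protocols. The authors deposited intensity values on a linear scale. They name MAS5, per the submitters' processing notes, with no version or settings. All 3 arrays had a mean of 500.1 once 2% of values were trimmed at either end. No further scaling was applied. Of 54675 probe sets, 41097 had 1 gene in the platform annotation, 1801 several and 11777 none; symbols were updated through Entrez identifiers. A gene took its brightest single-gene probe set by mean signal, array control probe sets aside. Signals under the floor were set to it, and log2 differences were taken between pairs of arrays for 3 comparisons. The number of arrays limits the precision. Calculations used Python 3.11.15, pandas 2.3.3 and limma 3.58.1, and were tested on simulated data.

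The 9 genes, the lists and the settings were chosen with earlier results of these data known. Named genes are the 9 enzymes, up to 4 genes per list with the largest mean difference, ATF4, TYMS and MTHFD2L, and members of small counts. The 3 genes nearest each serine synthesis enzyme are also named, and those nearest the other enzymes are not. Some genes of the lists were not analysed here. The 9 other settings listed at the outset changed the scaling, the floor, the probe set or the fold threshold, and 1 was added later.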

Additional observations from a re-analysis of the deposited data

Results flagged for a closer look

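MTR, the methionine synthase, was the 1 gene among those named by rule whose gene value differed in sign between the times. It was at 0.01 at 12 h and -0.22 at 24 h against the control. The second probe set of MTR was lower at both times, at -0.28 and -0.17, so the change of sign is not shared. With 1 array per group this change was not tested.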

How the results depend on the processing

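No paired analysis was possible because each group held 1 array, and no array could be left out. Of 381 values of the enzymes under alternatives, 349 stayed within 0.183 on the log2 scale, the robust SD between the treated arrays, or within 1.5 times for counts. Median centring, quantile normalization, cyclic loess, transcript-specific probe sets and the floor at the 65th percentile moved none of them further; PSAT1 has no transcript-specific probe set. The floor at the 25th percentile, which admits SHMT1 and MTHFD1L, gave medians at 12 h of 0.30 for mitochondrial and -0.18 for cytosolic folate enzymes, a difference of 0.49, and a mitochondrial median of 0.31 at 24 h. For 24 h against 12 h the cytosolic median was -0.43 and the difference 0.41. No floor with a pseudocount of 1 gave 0.30, -0.19, 0.49, 0.31, -0.42 and 0.40 for the same values. The median over probe sets gave at 12 h 1.04 for PSAT1, 0.36 for MTHFD2 and -0.26 for MTHFD1 and so for the cytosolic median, with 2 enzymes 2-fold higher. It gave 0.26 for MTHFD2 at 24 h and -0.53 for PSPH between the treated arrays. With probe sets of several genes PHGDH was at 0.06 at 12 h, -0.04 at 24 h, a reversal, and -0.10 between the treated arrays, and 0 enzymes were 2-fold higher at 24 h. There the median of the enzymes was 0.17 at 12 h and 0.19 at 24 h, and at 12 h the mitochondrial median was 0.30 and the cytosolic -0.15. The mitochondrial minus cytosolic difference was then 0.45 at 12 h, 0.66 at 24 h and 0.18 between the treated arrays. These shifts follow from which probe sets enter. At 1.5-fold, 3 enzymes were higher at 12 h and 4 at 24 h. Among genes outside the 9, SLC1A4 was at 0.48 at 12 h and PAICS at 0.22 at 24 h with transcript-specific probe sets, and SFXN2 was at -0.46 at 12 h under the higher floor. The cause was not tested. Signals below the floor of 61.4 were read as levels only in the marker sums, at the lower floor and with no floor.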

Other observations

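MTHFD2L, the mitochondrial isozyme of MTHFD2, gave 1277.5 at 12 h and 1414 at 24 h, against 1144 in the control, differences of 0.16 and 0.31. Of its 5 probe sets above the floor on all arrays 4 were higher at 12 h and 5 at 24 h. MTFMT, which formylates the mitochondrial initiator tRNA with a folate-borne carbon, gave 691.5 at 12 h and 573 at 24 h, against 457 in the control, or 0.60 and 0.33 on its 1 probe set. MTHFSD, whose role in folate metabolism is not settled, was at 0.45 and 0.74 on its brightest probe set and at 0.00 and 0.03 as the median over its 6.

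Of 6 measured genes of glycine cleavage and handling 5 were higher at 12 h and 3 at 24 h, beside 50.2% and 48.8% of all measured genes, with medians of 0.17 and 0.03. AMT, the aminomethyltransferase that passes glycine carbon to folate, gave 127 at 12 h and 153 at 24 h, against 97.0 in the control, or 0.38 and 0.66. GCSH, the lipoyl carrier of that complex, was at 0.09 and 0.16, GCAT at 0.25 and 0.12 and GLYCTK at -0.02 and -0.40. GLDC, the glycine decarboxylase, was below the floor on all 3 arrays, at 47.1 at 12 h, 39.1 at 24 h and 58.8 in the control.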
